A study of Oryzias minutillus with 2 samples.

Results

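A set of 102 clusters, out of the 73551 assembled for the Thai medaka Oryzias minutillus, was well expressed in a male whole-body library and at least 4-fold lower in the female one. They were chosen by their values in these libraries. A member had at least 30 FPKM (fragments per kilobase of cluster and per 1000000 mapped fragments) in the male, and its log2(FPKM + 1) in the male exceeded that in the female by at least 2. The values of both libraries thus define the set, and everything said here of its male and female levels is a description. Divided at 1 FPKM in the female, 33 members were near 0 there and 69 were lower than in the male but still at 1 FPKM or more. The second set held most of the abundance.

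Oryzias minutillus is a small freshwater ricefish. The series has 1 male and 1 female library of whole-body total RNA treated with DNase I, both labelled as from Thailand. The labels name no strain, age or reproductive state and do not say whether a library pools several animals. With 1 library per sex there is no replicate error, no p-value was computed, and every difference is one between these libraries. In such bulk samples, fewer cells of a type and less RNA per cell cannot be told apart. The male library sums to 1009910 FPKM and the female to 1007824 FPKM, from an unknown number of reads.

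As background, a whole-body library of a fish mixes RNA of muscle, skin, liver, gonad and all other organs. In teleosts the gonads are the organs whose transcripts differ most between the sexes. The testis carries germ cells through meiosis and the building of the sperm flagellum and is known for transcribing an unusually wide range of genes. The ovary stores maternal RNA and makes egg-coat proteins, and the liver of a reproductive female makes yolk precursors. A transcript made in one organ is diluted by the rest of the body, so its whole-body level depends both on how strongly that organ expresses it and on the size of the organ. The files do not pair the cluster identifiers with gene names or sequences, so no member could be assigned to any organ, gene or position, and its defining markers could not be checked. Members are therefore described by their values and by their rank in the male library.

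The members began well below the most abundant transcripts of the male. The most abundant member, Cluster-4703.27538, had 1340.87 FPKM in the male library and 250.33 FPKM in the female. It ranked 132 among all clusters of the male library and 453 in the female, and its male to female ratio was 5.36. Cluster-4703.32660 followed with 1070.66 FPKM in the male and 174.95 FPKM in the female, a ratio of 6.12, at ranks 156 and 605. These are the 2 members above 1000 FPKM, and both were thus plainly expressed in the female library as well. The next member, of rank 167, had 941.41 FPKM in the male and 214.38 FPKM in the female.

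The male rank of the members ran down to 2932 and had a median of 1529.5. From the highest to the lowest member, 30.09 FPKM, the male values spanned 44.6-fold. The median male value was 57.7 FPKM, and its quartiles were 36.7 and 130 FPKM. Of the 102 members, 45 lay below 50 FPKM and 33 reached 100 FPKM. Over all 2939 clusters of at least 30 FPKM in the male, the median was 60.6 FPKM, close to that of the members. The members were 3.47% of these clusters but held 2.03% of their summed male FPKM. What the rule set apart was their female value. Its median was 6.55 FPKM in the members and 54.0 FPKM in those 2939 clusters, while over all clusters the median was 1.68 FPKM in the male and 1.33 FPKM in the female.

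**Figure D1:**
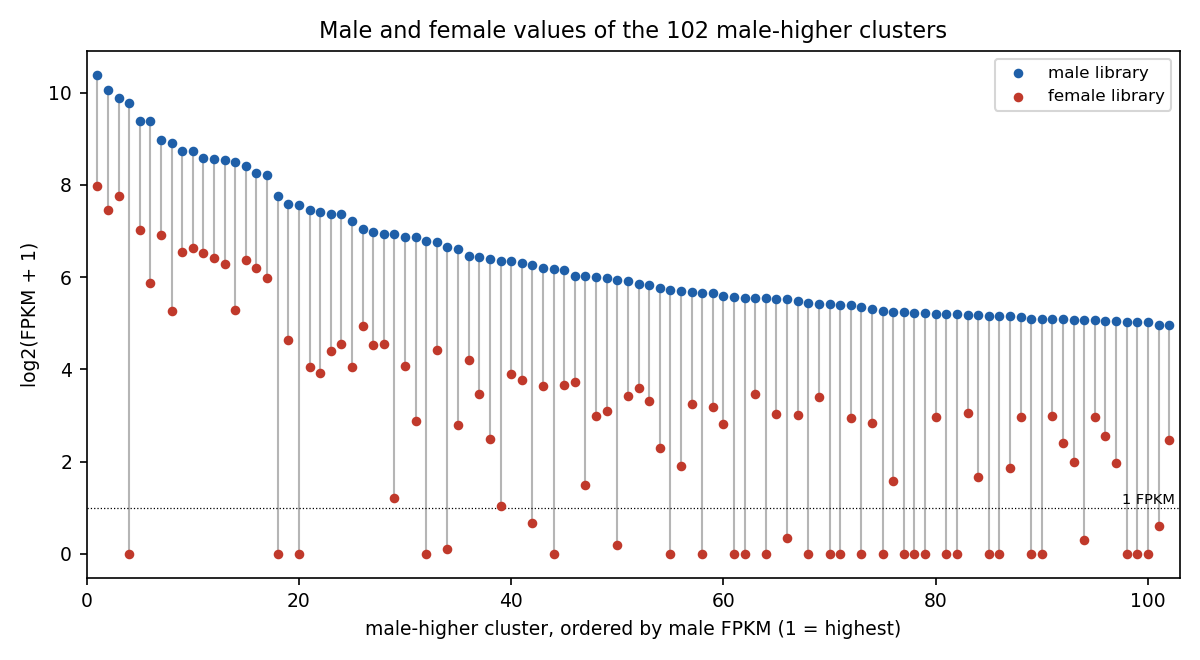
Male (blue) and female (red) values of the 102 members as log2(FPKM + 1), ordered by male FPKM from highest to lowest, with a grey line joining the values of each cluster and a dotted line at 1 FPKM. Among the 16 members of at least 300 FPKM in the male, 1 was near 0 in the female, whereas 32 of the 86 members below 300 FPKM were. At lower male values the rule leaves less room for female values of 1 FPKM or more, which affects these shares but not the number near 0.

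Members made up 3.47% of the 2939 clusters that had at least 30 FPKM in the male. Without the abundance limit, 1510 clusters passed the same 4-fold limit toward the male, which is 2.05% of all. Since the rule uses this contrast, these shares only describe the set. The reverse rule, at least 30 FPKM in the female and at least 4-fold higher there, takes 341 of 3136 clusters, which is 10.9%. The median difference in log2(FPKM + 1), male minus female, was 3.07 in the members, 0.21 over all clusters of at least 30 FPKM in the male, and 0.12 over all clusters.

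The members at the lower limit of the rule adjoined a larger number of clusters with a smaller male lead. Of the 2939 clusters of at least 30 FPKM in the male, 311 had a difference of 1 to 2 in log2(FPKM + 1), 49 had 2 to 3, 17 had 3 to 4, 3 had 4 to 5, 27 had 5 to 6 and 6 had 6 or more. The 69 members of 1 FPKM or more in the female were all of those from 2 to 4, 1 of those from 4 to 5 and 2 of those from 5 to 6. The other clusters from 4 upward were the 33 near-0 members, and on this scale a listed 0 in the female gives a difference that depends on the male value alone. Of the 102 members, 34 had a difference below 2.5. Just inside the limit was a cluster of 41.70 FPKM in the male and 9.64 FPKM in the female, with a difference of 2.005. Just outside it was one of 1108.52 and 277.58 FPKM, with a difference of 1.994. At the abundance limit, the lowest member had 30.09 FPKM in the male and 4.55 FPKM in the female, and the nearest cluster left out had 29.86 FPKM in the male and was listed at 0 in the female. Neither limit falls in a gap of the values.

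In this merely lower set the female values ran from 1.04 to 250.33 FPKM with a median of 10.1 FPKM. The male to female ratio had a median of 6.25. It lay between 4 and 8 in 45 of the 69, between 8 and 16 in 15, between 16 and 32 in 6, and above that in 3, up to 91.8. The highest ratio belonged to the cluster ranked 748 in the male, with 122.08 FPKM there and 1.33 FPKM in the female. All 69 were thus detected in both libraries, most of them at several times the level in the male.

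The most abundant members belonged here. In all, 16 members still had 30 FPKM or more in the female library, and they were 16 of the 17 most abundant members in the male. They ranked between 132 and 384 in the male and between 453 and 2494 in the female. Their ratios ran from 4.15 to 12.8 with a median of 4.70. The widest of these ratios was that of the member ranked 255, at 479.22 FPKM in the male and 37.54 FPKM in the female. The member ranked 213 had 663.24 and 57.19 FPKM, a ratio of 11.6. The member ranked 327 had 363.05 and 37.97 FPKM, a ratio of 9.56. The other 13 had ratios from 4.15 to 6.12 with a median of 4.44. The highest of these was that of Cluster-4703.32660, and the lowest that of the member ranked 343, at 340.31 and 81.91 FPKM. With the female values raised by one of the scalings tried, up to 8 of the 16 no longer met the rule.

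The other 33 members were near 0 in the female, below 1 FPKM there. The division at 1 FPKM is a convention and falls in no gap, since the nearest members had 0.58 FPKM below it and 1.04 FPKM above it. The rule cannot miss a cluster of this kind, because any cluster of at least 30 FPKM in the male and below 1 FPKM in the female differs by at least 3.95 in log2(FPKM + 1). They are therefore all such clusters in the data, 1.12% of the 2939 of at least 30 FPKM in the male. Of the 33, 27 were listed at exactly 0 in the female and 6 had a value between 0.07 and 0.58 FPKM. A listed 0 does not show absence, since the number of reads and the cluster lengths are not known. For the same reason it is not known how many reads lie behind a male value, including those just above 30 FPKM.

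Most near-0 members lay low in the male range. The 4-fold limit does not shape this, since it removes no near-0 cluster. Of all clusters, members or not, 2.03% were near 0 from 30 to below 50 FPKM in the male, and 0.452% from 300 to below 1000 FPKM. At low male values the rule does leave less room for members of 1 FPKM or more in the female. Their median male value was 41.2 FPKM, against 80.7 FPKM for the members of 1 FPKM or more in the female, and 24 of the 33 were below 50 FPKM in the male. The member ranked 173 in the male, with 875.65 FPKM there and a listed 0 in the female, stood far above the rest. It alone held 32.9% of the summed male FPKM of the near-0 members. After it came members of 216.08, 189.59 and 109.90 FPKM in the male, at ranks 479, 527 and 831, each also listed at 0 in the female. The other 23 members listed at 0 lay between 31.71 and 71.37 FPKM. Of the 33 near-0 members, 4 thus reached 100 FPKM in the male.

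The 6 members with a value above 0 but below 1 FPKM had a trace in the female library. The member ranked 907 had 99.59 FPKM in the male and 0.07 FPKM in the female, a ratio of 1423. The member ranked 1465 had 60.78 and 0.14 FPKM, and the member ranked 1202 had 75.38 and 0.58 FPKM. The remaining 3 had 45.14 and 0.26 FPKM, 32.69 and 0.24 FPKM, and 30.26 and 0.52 FPKM. Their ratios began at 58.2 and had a median of 155. A member below 1 FPKM in the female must have a ratio above its own male value in FPKM, and so above 30. The division sets only this lower bound, and how far the ratios exceed it rests on female values of 0.07 to 0.58 FPKM. Of the 69 members at 1 FPKM or more, 2 had ratios above 58.2, at 78.0 and 91.8.

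Few members lay just above the limit of 1 FPKM. From 1 to below 3 FPKM in the female there were 9 members, from 3 to below 10 FPKM 24, from 10 to below 30 FPKM 20, and at 30 FPKM or more the 16 already described. The lowest of these classes had a median male value of 37.0 FPKM and the highest of 426 FPKM. Since a member of 30 FPKM can have at most 6.75 FPKM in the female while a member of 1000 FPKM may have far more, the rule itself ties higher female values to higher male values.

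**Figure D2:**
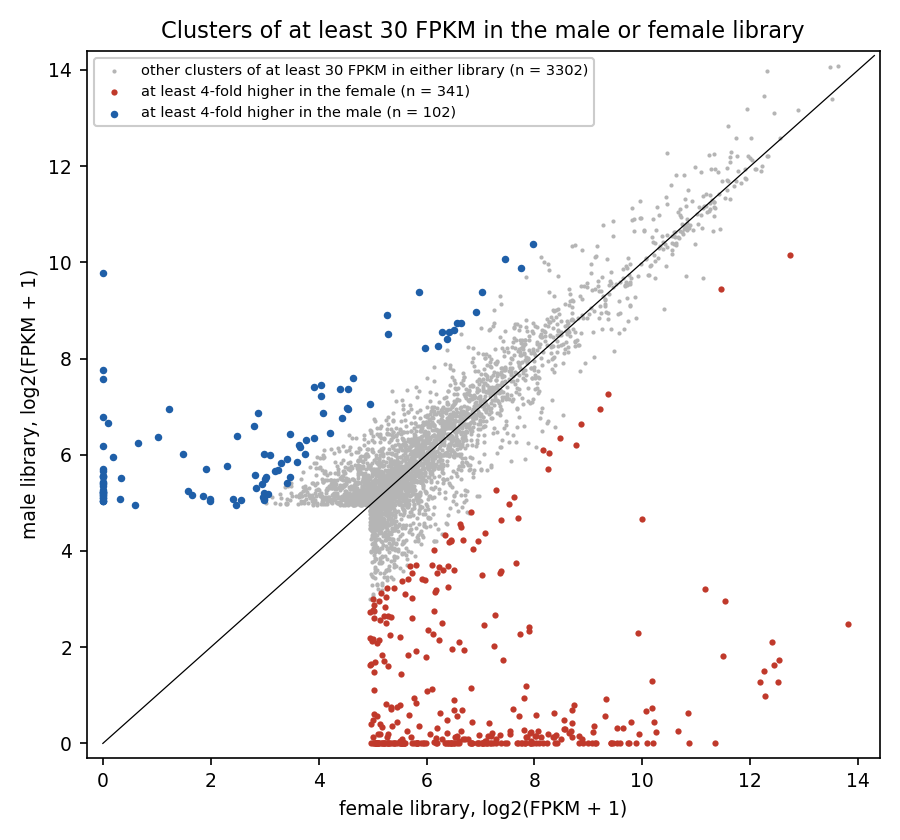
Each point is a cluster of at least 30 FPKM in either library, at its female (x) and male (y) log2(FPKM + 1), with the 102 male-higher members in blue, the 341 female-higher clusters in red, the others in grey and equality as a black line. The members form a band beside the grey cloud up to 1340.87 FPKM in the male and a column of 27 at a female value of 0, while the red clusters reach 14463.57 FPKM in the female.

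By abundance in the male, members were spread over all classes. They numbered 45 of 1181 clusters (3.81%) from 30 to below 50 FPKM, 24 of 855 (2.81%) from 50 to below 100, 17 of 522 (3.26%) from 100 to below 300, 14 of 221 (6.33%) from 300 to below 1000, and 2 of 160 (1.25%) at 1000 FPKM or more. Near-0 members made up 24 of the 45 members in the lowest class, 5 of 24 in the next, 3 of 17 in the third, 1 of 14 in the fourth and 0 of the 2 above 1000 FPKM. As a share of all clusters of a class, whether members or not, near-0 clusters were 2.03% in the lowest class and 0.452% from 300 to below 1000 FPKM.

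The same counts for the female-higher clusters, chosen by the reverse rule, stand beside these. Of those 341 clusters, 223 (65.4%) were below 1 FPKM in the male, and 119 (34.9%) were listed at 0. Among the 102 male-higher members, 32.4% were below 1 FPKM in the female and 26.5% were listed at 0. Of all 3136 clusters of at least 30 FPKM in the female, 7.11% were below 1 FPKM in the male and 3.79% were listed at 0. Of all 2939 clusters of at least 30 FPKM in the male, 1.12% were below 1 FPKM in the female and 0.919% were listed at 0. The female-higher clusters below 1 FPKM in the male were 61 of 98 from 30 to below 50 FPKM in the female, 42 of 50 from 300 to below 1000 FPKM, and 11 of 25 at 1000 FPKM or more. With 1 library per sex, none of these differences between the sets could be tested.

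**Figure D3:**
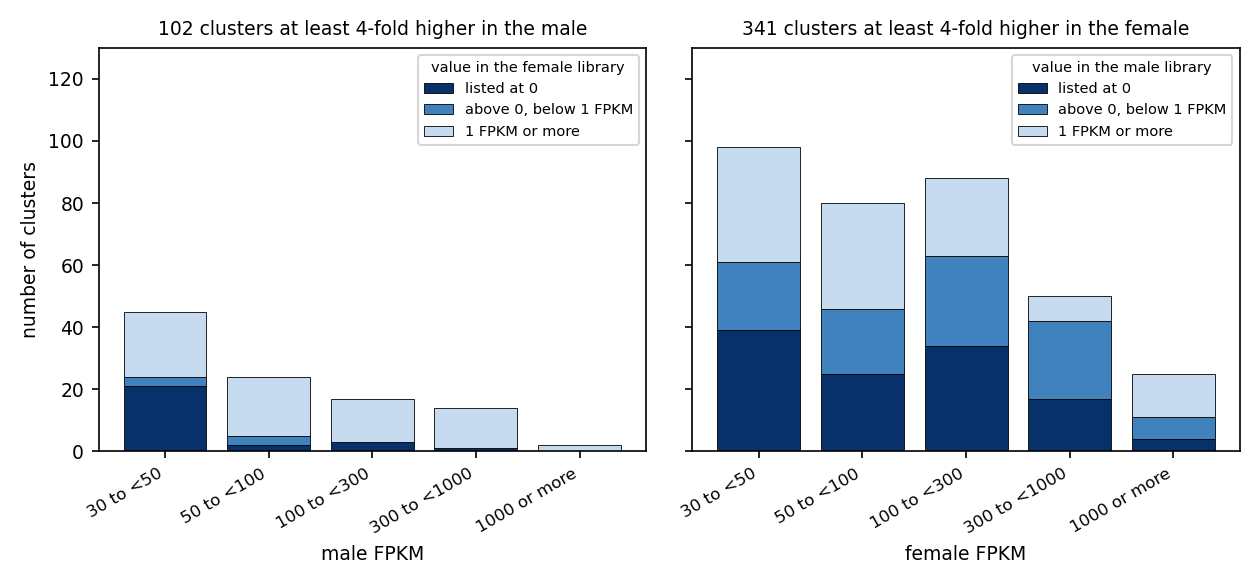
Number of clusters in each abundance class (FPKM in the higher library) for the male-higher members (left) and the female-higher clusters (right), with shading for the value in the other library. The 2 darker shades, near 0 in the other library, hold 24 of 45 members in the lowest male class and 1 of 14 from 300 to below 1000 FPKM, and 42 of 50 female-higher clusters in that same class.

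The members held a small share of the male library. Their male values summed to 15575 FPKM, 1.54% of the summed FPKM. The members are 0.139% of all clusters, and the male minimum of 30 FPKM by itself makes their share of the FPKM larger than that. In the female library the same clusters summed to 2196 FPKM, 0.218%, so the sum was 7.09-fold higher in the male. All clusters of at least 30 FPKM in the male together held 76.0% of that library. Of this the members held 2.03%, while by number they were 3.47% of these clusters. The 341 female-higher clusters held 13.7% of the female library and 0.344% of the male.

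That share was unevenly spread over the members. The most abundant 12 held 50% of the members' sum in the male and the most abundant 60 held 90%. Among the 341 female-higher clusters, the most abundant 13 held 50% of their sum in the female. The 16 members of at least 300 FPKM in the male held 0.944% of the male library, and the other 86 held 0.598%. Divided at 1 FPKM in the female, the 69 merely lower members held 1.28% of the male library and 82.9% of the members' sum. The 33 near-0 members held 0.263% of the male library, or 0.177% without the member of 875.65 FPKM.

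**Figure D4:**
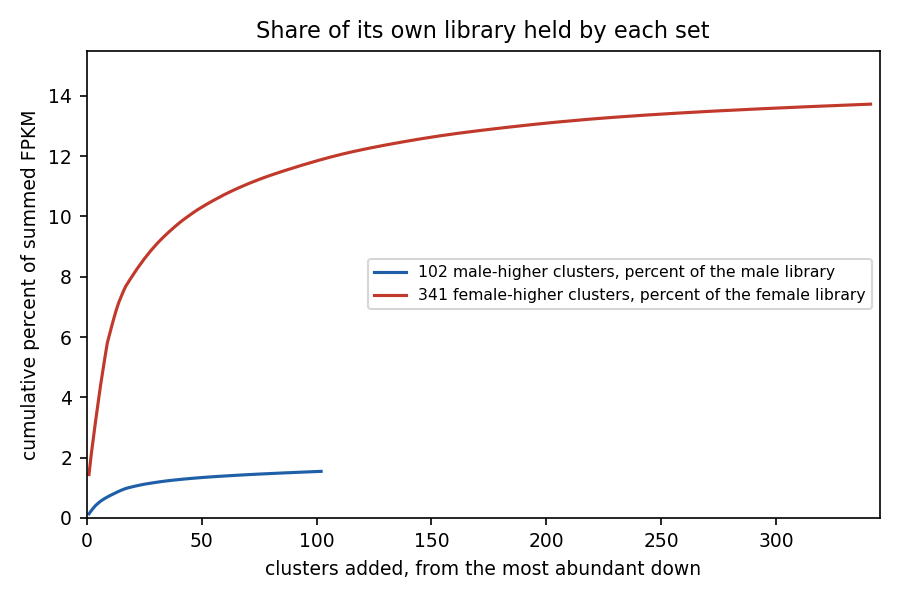
Cumulative share of the summed FPKM of its own library, in percent, as clusters are added from the most abundant down, for the male-higher members (blue) and the female-higher clusters (red). The members level off at 1.54% of the male library and the female-higher clusters at 13.7% of the female library.

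Ranks order the same values that define the set, so lower ranks of the members in the female library largely follow from the rule. In the male library 18 members were among the 500 most abundant clusters and 35 among the 1000 most abundant, against 1 and 6 in the female library. The male counts stand beside the 3.47% that members made up of all clusters of at least 30 FPKM in the male. All 102 were among the 3000 most abundant of the male. The rule fixes this, since only 2939 clusters had at least 30 FPKM there. In the female library 16 of the 102 were among the 3000 most abundant. Even so, 67 of the 102 lay above the median of all clusters in the female library.

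The identifiers carry a group number and a number within the group, whose meaning no label or header states. Of the 102 members, 96 (94.1%) belonged to the largest group, which holds 71.5% of all clusters and 99.3% of those of at least 30 FPKM in the male. The 6 members outside it had between 31.71 and 36.04 FPKM in the male, and 3 of them were listed at 0 in the female. Within the largest group, 4 pairs of members, 8 clusters in all, had consecutive numbers. One pair had nearly the same values, with 382.78 and 428.34 FPKM in the male and 90.35 and 93.11 FPKM in the female. Another had 115.81 and 147.69 FPKM in the male and 15.83 and 15.57 FPKM in the female. In the third, the ratios of the pair were 35.5 and 16.2, and in the fourth 6.08 and 12.8. Whether such a pair is one transcript assembled in pieces was not tested, and so the number of genes behind the 102 clusters is not known. A neighbour of at least 30 FPKM in the male was found at the next or the preceding number for 23 of the 96 members (24.0%) and for 32.8% of all 2917 clusters of that abundance in the group.

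FPKM divides by the mapped fragments of a library, so all its clusters share one total of fragments. It does not fix the summed FPKM, of which the female-higher clusters held 13.7% in the female. With the female values raised by 0.21 on the log2 scale, the weighted trimmed mean of the log2 ratios, 87 clusters met the rule, all of them among the 102. The 15 that no longer met it included 8 of the 16 of at least 300 FPKM in the male and the share of the male library was 1.14%. The near-0 members differ by at least 4.36 in log2(FPKM + 1), so no shift of this size can take them below the 4-fold limit. Setting each library to a sum of 1000000 left 100 members. The 2 that no longer met the rule, of 30.26 and 30.09 FPKM in the male, fell below the minimum of 30 FPKM there. Of these 2, 1 was near 0 in the female.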

How the data were processed

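RNA from the whole body of 1 male and 1 female sample was sequenced by Illumina. The series' design text mentions triplicates, while the labels list 1 sample per sex. The authors deposited FPKM per assembled cluster, with 2 decimals, per the file headers. The submitters' processing notes name CASAVA 1.8, and no source used here names the assembler, aligner or counting tool. Each sample had 2 identical files, of which 1 was used.

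The libraries were joined on the cluster identifier and compared as deposited, on log2(FPKM + 1), with Python 3.11.15 and pandas 2.3.3. This scale understates the difference of low values. No count test, p-value or counting interval was possible, since lengths and reads are unknown and each sex has 1 library. Among 25908 clusters of 0.3 to 3 FPKM in both libraries, male to female ratios gathered at 1 to 1. There 1152 clusters lay within 0.01 in log2, against a median of 157 per window. Ratios also gathered toward the male at 3 to 2 (384) and 2 to 1 (516), and toward the female at 2 to 3 (318) and 1 to 2 (301). Such gathering arises where whole reads are counted and a read is worth about the same FPKM in both libraries, or where the depths differ by a simple factor. It gives no number of reads.

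The members, the classes and the comparisons were chosen with earlier results of these data known. The rule for printed identifiers was the 2 members with the highest male FPKM. The code was tested on simulated data. Alternatives were other pseudocounts, thresholds, minimums and scalings.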

Additional observations from a re-analysis of the deposited data

How the results depend on the processing

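The counts and the share depend on where the limits are drawn. The number of members was 413 with a 2-fold and 53 with an 8-fold threshold, and 175, 57 and 33 with a male minimum of 20, 50 and 100 FPKM. The count near 0 was 86, 9 and 4 with those minimums, and 6 among clusters above 0 in both libraries. The share of the male library was 12.9% at 2-fold and 0.550% at 8-fold, 1.71%, 1.37% and 1.21% with the 3 minimums, and 1.31% for clusters above 0 in both. With pseudocounts of 0.1, 0.5 and 5 it was 1.59%, 1.57% and 1.44%, for 111, 107 and 87 members. It was 1.38% when the female values were scaled by the upper quartile (shift of 0.10 in log2), and 1.14% when scaled by the weighted trimmed mean, by the median ratio (shifts of 0.21 and 0.23) or, chosen after seeing the data, by the sums over clusters outside the male-higher and female-higher sets (0.19). The last 3 scalings each gave 87 members. Without the near-0 member of 875.65 FPKM, also chosen after seeing the data, the share was 1.46%. The count near 0 was 31 and 37 with limits of 0.5 and 2 FPKM. The fold thresholds and scalings tried say nothing of its stability, since near-0 members differ by at least 4.36 in log2(FPKM + 1) and cannot fall below those thresholds. No paired analysis was possible because there is 1 library per sex, and no replicate could be left out. Depth and cluster lengths are unknown, so a listed 0 has no known detection limit.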
